A study of Mus musculus with 6 samples.

Results

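Glo1, the genes next to it in a duplication that some inbred mouse strains carry (Btbd9, Dnah8 and Glp1r), and the Glo1 pseudogene Gm13443 were followed in the gastrocnemius, a fast muscle of the calf. These 5 genes, chosen by symbol with earlier results of this comparison known, are 5 of 57010 rows of the count table, and all 5 symbols matched 1 Ensembl ID each. Because the choice rested on values of this comparison, their differences between the groups are given as a description, and no result rests on a test of them. Libraries came from 3 mutants and 3 controls, all adults of 3 months with no treatment, each animal being 1 replicate. The mutants are homozygous for Dysfprmd in the line B6.A-Dysfprmd/GeneJ (BLAJ), have dysferlinopathy by label, and comprise 2 females (replicates 1 and 2) and 1 male (replicate 3). The controls are 3 males labelled C57BL/6 and wild type, so that strain and Dysf genotype change together between the groups, and sex partly so.

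Glo1 encodes glyoxalase I, a cytosolic enzyme that acts in the removal of methylglyoxal, a reactive by-product of glycolysis, with glutathione as cofactor. Hagh, glyoxalase II, then releases D-lactate and returns the glutathione. Methylglyoxal that escapes this route modifies proteins, and it forms wherever glycolysis runs, as in fast muscle. The duplicated stretch of chromosome 17 holds Glo1 and its neighbours, is carried by A/J among other strains and is absent from the reference strain C57BL/6J, and is known for higher Glo1 expression in strains that carry it. Btbd9, a BTB-domain protein, is best known from human genetics of restless legs syndrome. Dnah8 is a dynein heavy chain of the sperm tail, and Glp1r is the receptor for the gut hormone GLP-1 on pancreatic beta cells. Gm13443 is a processed pseudogene, an intronless copy of the Glo1 transcript on chromosome 2. Copy number was not measured in these libraries.

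Gm13443 is so close to Glo1 that reads from most of its length match both. Against the Glo1 coding sequence of the GENCODE M21 transcripts (build GRCm38, strain C57BL/6J), 552 of 555 bases were identical (99.5%). Of the 495 windows of 61 bases in Gm13443, the read length used, 364 (73.5%) also occurred in Glo1 transcripts and 131 did not, and none of the 495 held more than 1 difference or occurred in transcripts of any gene other than Glo1. The Glo1 coding sequence is joined from exons at 5 places, after bases 84, 167, 308, 376 and 466, where the pseudogene runs on without an intron. A blastn search with the Glo1 coding sequence found 1 further gene, AC165962.4, which overlaps Glo1 itself on the opposite strand. Its 85 matching bases, on the reverse strand, were bases 83 to 167 of the coding sequence. It had 1 read pair over the 6 libraries when counted without strand. On its own strand it had 0, 1 and 1 pairs in mutants and 3, 0 and 0 in controls. Pairs that map to several places were not counted, so counts of Gm13443 rest on pairs that carry at least 1 distinguishing base or reach past the shared sequence, and they remain uncertain for that reason.

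The libraries held 35042245 to 40230648 read pairs on genes in mutants and 40367595 to 43733641 in controls. Levels are given as CPM, counts scaled to the library size after TMM normalization, and 3 pairs in 1 library correspond to 0.068 to 0.0827 CPM, a limit that covers counting error only. Dysf, the mutated gene, followed the labels with 15.8, 14.7 and 20.3 CPM in mutants 1 to 3 and 72.3, 99.8 and 145 CPM in controls 1 to 3. The 7 markers of the skeletal muscle fibre summed to 131663 to 168744 CPM in mutants and 124833 to 177234 CPM in controls. The strain label of the controls is in doubt, since H2-Ea-ps, which C57BL/6 mice do not express and which lies on the Glo1 chromosome, stood at 0 to 0.0264 CPM in mutants and 2.37 to 3.44 CPM in controls. Ifi202b, likewise silent in C57BL/6, had 0 read pairs in mutants and 1.02 to 7.69 CPM in controls. Control 1 stood apart in its share of multimapping pairs, 9.78% of all pairs against 5.83% to 7.52% elsewhere. In whole muscle, fewer cells of a type and less RNA per cell cannot be told apart.

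Glo1 (ENSMUSG00000024026, protein coding, chromosome 17) was lower in mutants, where 3444, 3224 and 2751 read pairs gave 91.0, 88.9 and 70.0 CPM, against 6041, 4532 and 6875 pairs in controls, giving 151, 103 and 175 CPM. Every mutant lay below every control, and control 2 came nearest to the mutants. The mean level was 83.3 ± 11.6 CPM in mutants and 143 ± 36.7 CPM in controls (SD, n = 3 each), so mutants held 58.3% of the control mean. The log2 fold change, mutant minus control, was -0.78 (SE 0.22). The highest control had 1.70 times the level of the lowest, and the highest mutant 1.30 times the level of the lowest. The single male mutant had the lowest level of all, and within males the log2 fold change was -1.03. It was -0.74 without control 1, and it ran from -0.97 without control 2 to -0.61 without control 3.

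Gm13443 (ENSMUSG00000075391, processed pseudogene) showed the widest gap of the 4 genes that passed the filter on low counts. It had 14, 15 and 11 read pairs in mutants, or 0.37, 0.413 and 0.28 CPM, and 135, 114 and 209 pairs in controls, or 3.37, 2.58 and 5.31 CPM. The groups did not overlap, and control 3 was the highest library for both Gm13443 and Glo1. The means were 0.354 ± 0.0681 CPM in mutants and 3.76 ± 1.41 CPM in controls (SD, n = 3 each), with a log2 fold change of -3.40 (SE 0.38) and a mutant mean at 9.44% of the control mean. The log2 fold change was -3.47 without control 1, whose share of multimapping pairs was high.

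The gap in Gm13443 was wider than that in Glo1. For every 100 read pairs of Glo1, Gm13443 had 0.407, 0.465 and 0.4 pairs in mutants and 2.23, 2.52 and 3.04 in controls. The means of this ratio were 0.424 ± 0.036 in mutants and 2.60 ± 0.409 in controls (SD, n = 3 each), and no mutant overlapped a control. Within each group the ratio varied less between animals than the level of either gene, which for Gm13443 spanned 2.06-fold in controls. Nearly all pairs of Gm13443 lay on its own strand, with 0 opposite pairs in mutants and 2, 0 and 0 in controls.

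**Figure D1:**
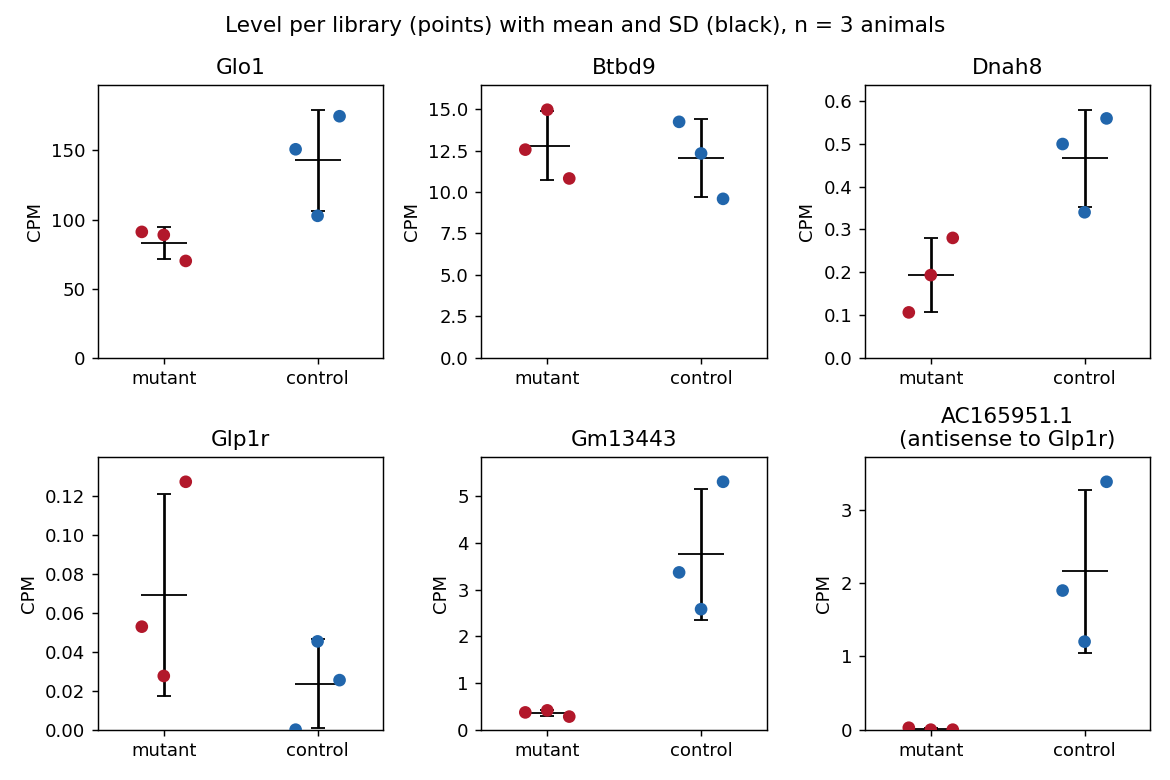
Level in CPM (linear axes from 0) of the 5 genes and of AC165951.1, a transcript antisense to Glp1r, in the 3 mutants (left, red) and 3 controls (right, blue), with mean and SD in black. Mutants and controls do not overlap for Glo1, Dnah8, Gm13443 and AC165951.1, and they overlap for Btbd9 and Glp1r.

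Dnah8 (ENSMUSG00000033826, protein coding) lies next to Glo1 on the opposite strand, and the annotated ends of both genes overlap. It had 4, 7 and 11 read pairs in mutants and 20, 15 and 22 in controls, that is 0.106, 0.193 and 0.28 CPM in mutants and 0.499, 0.34 and 0.559 CPM in controls. These are 22 pairs over all mutants and 57 over all controls, a level near the limit of these libraries. The groups did not overlap, and the log2 fold change was -1.25 (SE 0.46), but -0.73 within males or with sex as a covariate. All controls but only 1 mutant reached the count of 10 on which the filter is based, so Dnah8 passed it through the controls. Of the cells in which Dnah8 is known, male germ cells left no sign in their defining markers Prm2 and Tnp1, with 0 pairs in every library, and Prm1 had at most 5 pairs. The 3 markers of ciliated cells summed to 1.77 to 2.34 CPM in mutants and 1.80 to 3.20 CPM in controls. Most of this was Rsph1, with means of 1.45 CPM in mutants and 1.83 CPM in controls. The means ran the other way for Ccdc39 (0.437 CPM in mutants, 0.389 CPM in controls) and Foxj1 (0.0978 and 0.08 CPM), the latter near the limit.

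Btbd9 (ENSMUSG00000062202, protein coding), on the other side of Glo1, was measured at 475, 543 and 425 read pairs in mutants and 570, 544 and 377 in controls. This gave 12.6, 15.0 and 10.8 CPM in mutants and 14.2, 12.3 and 9.59 CPM in controls, and the groups overlapped throughout. The mean level was 12.8 ± 2.08 CPM in mutants and 12.0 ± 2.34 CPM in controls (SD, n = 3 each), with a log2 fold change of 0.08 (SE 0.20). Glp1r (ENSMUSG00000024027, protein coding), at the far end of the block, had 2, 1 and 5 read pairs in mutants and 0, 2 and 1 in controls, and did not pass the filter. Only mutant 3 exceeded 3 pairs, so no difference was detectable at this depth. Of the 3 islet markers, Ins1 and Gcg had 0 pairs in every library, and Ins2 had 1 pair in mutant 3 and 1 in control 2.

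Of the 5 genes 4 were tested in the fit across 15589 genes, 1 of them (Gm13443) was called lower by edgeR at an adjusted p below 0.05, where 0.186% of all genes were, and 3 had mutants below controls with no overlap, where 6.09% of all genes did. Nothing is read from these counts, since the genes were chosen on this comparison. The call of Gm13443 was lost without mutant 1, 2 or 3 and with sex as a covariate. In the authors' deposited table the log2 fold changes were -0.78 for Glo1, 0.08 for Btbd9, -1.27 for Dnah8, 1.53 for Glp1r and -3.41 for Gm13443.

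The libraries were directional, and the deposited files also count each strand. On its own strand Glo1 had 4474, 4241 and 3658 read pairs in mutants and 7392, 5676 and 8385 in controls, which is more than in the deposited matrix. The matrix was counted without strand, and there a pair that also overlaps a gene on the other strand is ambiguous and dropped. In GENCODE M21 Glo1 is overlapped by 4 features on the opposite strand, Dnah8, AC165962.2, AC165962.3 and AC165962.4. The last matches bases 83 to 167 of the Glo1 coding sequence on the reverse strand. How the dropped pairs divide over these features was not tested. The pairs missing from the unstranded count, taken as sense minus unstranded pairs, were 23.0%, 24.0% and 24.8% of the sense pairs in mutants and 18.3%, 20.2% and 18.0% in controls, with means of 23.9 ± 0.888% in mutants and 18.8 ± 1.17% in controls (SD, n = 3 each). The share was higher in every mutant than in every control.

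The 2 kinds of Glo1 pairs therefore differed in how far the groups were apart. Pairs counted in both ways averaged 83.3 CPM in mutants and 143 CPM in controls, a ratio of 0.583. Pairs present only in the strand-resolved count stood at 27.2, 28.0 and 23.1 CPM in mutants and 33.7, 25.9 and 38.4 CPM in controls, with a ratio of means of 0.799, and here control 2 lay below mutants 1 and 2. With strand-matched counts the log2 fold change of Glo1 was -0.68 (SE 0.21), and mutants still lay below controls at 102 ± 13.0 CPM in mutants and 165 ± 40.4 CPM in controls (SD, n = 3 each). Pairs on the strand opposite to Glo1 were few, 3, 7 and 5 in mutants and 25, 7 and 10 in controls. For Btbd9, Dnah8, Glp1r and Gm13443 the sense count departed from the unstranded count by at most 4 pairs in any library.

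**Figure D2:**
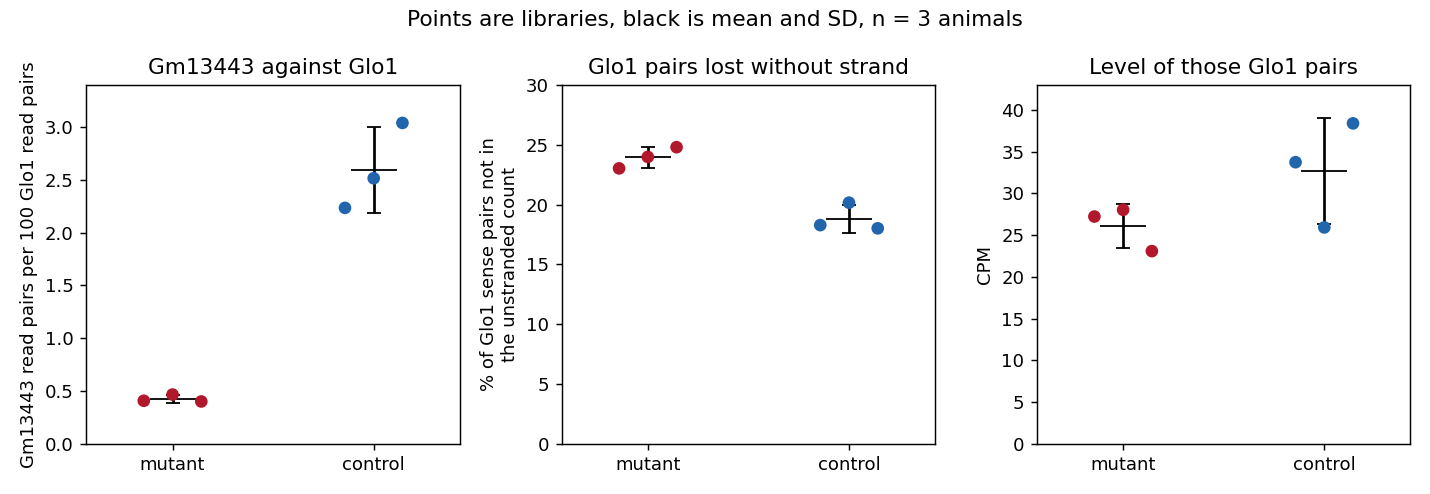
Read pairs of Gm13443 per 100 read pairs of Glo1 (left), percent of Glo1 sense pairs missing from the unstranded count (middle) and the level of those missing pairs in CPM (right), in mutants (red) and controls (blue), with mean and SD in black. The first averages 0.424 in mutants and 2.60 in controls and the second 23.9% in mutants and 18.8% in controls, both without overlap, while the third overlaps between the groups.

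Between Btbd9 and Glp1r the annotation lists 15 further features that the count table holds, of which 6 had 0 pairs in all libraries and 11 had under 10 pairs in sum. The other 4 are described here, and they were singled out after their values were seen. AC165951.1 (ENSMUSG00000117786), a transcript antisense to Glp1r that overlaps its end, had 1, 0 and 0 read pairs in mutants and 76, 53 and 133 in controls, or up to 0.0264 CPM in mutants and 1.90, 1.20 and 3.38 CPM in controls. It was present in every control and at most at a single pair in a mutant, with control 3 again the highest. Its counts were the same in the strand-resolved files, so they lay on the strand opposite to Glp1r, and Glp1r itself stayed at the limit of detection. AC165962.1, a transcript that starts beside Btbd9 on the other strand, had 141, 133 and 114 pairs in mutants and 192, 194 and 150 in controls. In CPM it stood at 2.90 to 3.73 in mutants and 3.81 to 4.79 in controls, a log2 fold change of -0.34 (SE 0.21). Its groups did not overlap either. AC113540.1, a processed pseudogene, had 3, 2 and 11 pairs in mutants and 9, 12 and 6 in controls, with overlap. AC165951.5, a long intergenic RNA, had 0 pairs in each mutant and 6, 10 and 4 in controls, but 0 pairs in all 6 libraries once only its own strand was counted.

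Outside the block the neighbours showed no shared shift. Of the 10 nearest tested protein-coding genes on each side, 10 had a positive and 10 a negative log2 fold change, the median was 0.02, and 0 of the 20 passed an edgeR adjusted p of 0.05, where 0.199% of all genes did. At an unadjusted p below 0.05 there was 1 of 20, where 6.94% of all genes were. That gene was Pi16, at 23.3 ± 6.40 CPM in mutants and 15.1 ± 1.03 CPM in controls (SD, n = 3 each; log2 fold change 0.62, SE 0.22, edgeR adjusted p = 0.655). The next gene before Btbd9, Zfand3, stood at 165 ± 44.1 CPM in mutants and 175 ± 39.1 CPM in controls, and the first tested gene after Glp1r, the cholesterol transporter Abcg1, at 3.21 ± 0.312 CPM in mutants and 2.40 ± 0.787 CPM in controls (SD, n = 3 each). U2af1, a splicing factor, was the neighbour whose groups did not overlap, at 29.7 to 30.8 CPM in mutants and 32.3 to 35.1 CPM in controls (log2 fold change -0.16, SE 0.11, edgeR adjusted p = 0.837). That is 1 of 20 genes with no overlap, where 12.1% of all genes had none. Pknox1, Cbs and Mdga1 had log2 fold changes of -0.32, 0.91 and 0.78, with edgeR adjusted p = 0.805, 0.834 and 0.834, and their groups overlapped. Single libraries moved these values: Mdga1, at 15.8, 16.6 and 50.6 CPM in mutants and 10.8 to 22.2 CPM in controls, was at -0.0012 without mutant 3, Cbs at 1.74 and Pknox1 at -0.15 without control 2, and Cbs at 0.54 without control 1.

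Among 239 other tested genes within 5 Mb of Glo1 on the GRCm38 annotation, the median log2 fold change was 0.05, beside -0.0015 over all genes tested. edgeR called 3 of the 239, all lower in mutants, where 0.186% of all genes were: AC165951.1, H2-Ea-ps and the class I histocompatibility gene H2-Q1. AC165951.1 and H2-Ea-ps, each with 1, 0 and 0 read pairs in mutants 1 to 3, passed the filter on low counts through the controls. Such genes could be called only as lower in mutants, so nothing is read from this count. H2-Ea-ps and H2-Q1 lie in the major histocompatibility complex. The edgeR call of AC165951.1 was lost without mutants 1, 2 or 3 (adjusted p = 0.235, 0.182 and 0.0857), and the calls of H2-Ea-ps and H2-Q1 without mutants 1 or 2 (edgeR adjusted p = 0.0639 and 0.0621 for H2-Ea-ps, 0.117 and 0.121 for H2-Q1).

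**Figure D3:**
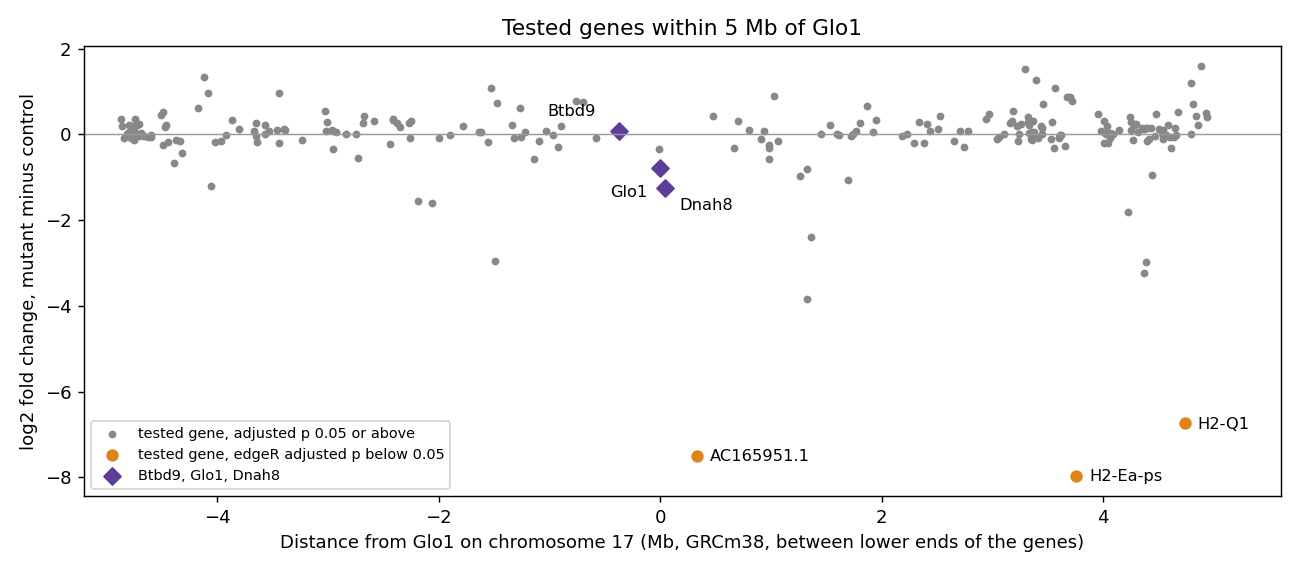
Log2 fold change (mutant minus control) of tested genes by distance from Glo1 on chromosome 17, in Mb of GRCm38, with Btbd9, Glo1 and Dnah8 as purple diamonds and the 3 other genes called by edgeR in orange. Most genes lie near 0 (median 0.05), and AC165951.1 lies far below Glo1 and Dnah8 within the same block, at a fitted value that depends on the prior count because mutants held a single pair.

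The genes that make and remove methylglyoxal around Glo1 were read from a list of 28, of which 25 were tested. None of the 25 passed an edgeR adjusted p of 0.05 (smallest 0.677) in either direction. In the same fit 1 higher and 1 lower gene had an unadjusted p below 0.05, where 3.25% and 3.69% of all genes did. Their log2 fold changes had a median of 0.05. Of these 17 were positive and 8 negative, beside 7762 and 7827 over all genes tested. Without overlap between the groups there were 3 of 25, where 12.1% of all genes had none. Hagh, which takes the product of glyoxalase I, stood at 48.9, 47.1 and 54.8 CPM in mutants and 49.3, 51.1 and 42.1 CPM in controls (log2 fold change 0.08, SE 0.13, edgeR adjusted p = 0.95). The groups overlapped for Hagh. Ldhd, the mitochondrial enzyme that oxidises D-lactate, had 47.1 ± 5.53 CPM in mutants and 41.2 ± 9.72 CPM in controls (SD, n = 3 each). Park7, a protein to which removal of methylglyoxal damage has been ascribed, had 540 ± 28.8 CPM in mutants and 453 ± 74.4 CPM in controls (SD, n = 3 each; log2 fold change 0.25, SE 0.17, edgeR adjusted p = 0.834), with a log2 fold change of 0.13 without control 1. The other aldehyde-clearing enzymes, aldo-keto reductases and aldehyde dehydrogenases, had log2 fold changes from -0.0059 for Akr1a1 to 0.29 for Aldh1a1.

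The glycolytic enzymes from whose substrates methylglyoxal forms lay close together in both groups. Tpi1 stood at 2392 ± 211 CPM in mutants and 2719 ± 519 CPM in controls, and Gapdh at 5817 ± 554 CPM in mutants and 5847 ± 112 CPM in controls (SD, n = 3 each). Aldoa had a log2 fold change of 0.03 (SE 0.20). Aoc3, an amine oxidase of adipocytes and vessel walls that can yield methylglyoxal from aminoacetone, had 10.9, 22.7 and 22.5 CPM in mutants and 10.1, 12.3 and 11.2 CPM in controls (log2 fold change 0.75, SE 0.28, edgeR adjusted p = 0.677). Mutants 2 and 3 lay above all controls and mutant 1 among them. The 3 adipocyte markers summed to 17.4 to 59.3 CPM in mutants and 12.2 to 27.8 CPM in controls, and their part in the level of Aoc3 was not tested.

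Glutathione, the cofactor of glyoxalase I, is made by glutamate-cysteine ligase followed by glutathione synthetase. The catalytic subunit of the ligase is Gclc and its modifier subunit Gclm. Gclm stood at 21.4, 23.2 and 18.8 CPM in mutants and 24.6, 25.2 and 33.1 CPM in controls (log2 fold change -0.39, SE 0.16, edgeR adjusted p = 0.709). Gclc stood at 11.6, 11.4 and 11.5 CPM in mutants and 14.2, 11.8 and 16.1 CPM in controls (log2 fold change -0.29, SE 0.15, edgeR adjusted p = 0.791). Both had mutants below controls with no overlap, 2 of 4 tested genes of glutathione supply. Of all genes 6.09% had mutants below controls with no overlap, and 12.1% had no overlap in either direction. Neither Gclm nor Gclc passed the test. Gsr, the glutathione reductase, had 20.8 ± 2.60 CPM in mutants and 28.4 ± 6.91 CPM in controls (SD, n = 3 each; edgeR adjusted p = 0.74), with overlap. Gss, the glutathione synthetase, ran the other way at 6.51 ± 0.365 CPM in mutants and 6.02 ± 0.849 CPM in controls (SD, n = 3 each; log2 fold change 0.11, SE 0.17, edgeR adjusted p = 0.948), also with overlap. Without control 3 the log2 fold changes were -0.25 for Gclm and -0.18 for Gclc, and without control 2 that of Gsr was -0.24. Of 4 tested genes on the response to and repair of glycation, Lgals3, galectin-3, ranged from 8.17 to 19.1 CPM in mutants and from 7.17 to 52.0 CPM in controls. Ager, the receptor for glycation end products, did not pass the filter.

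**Figure D4:**
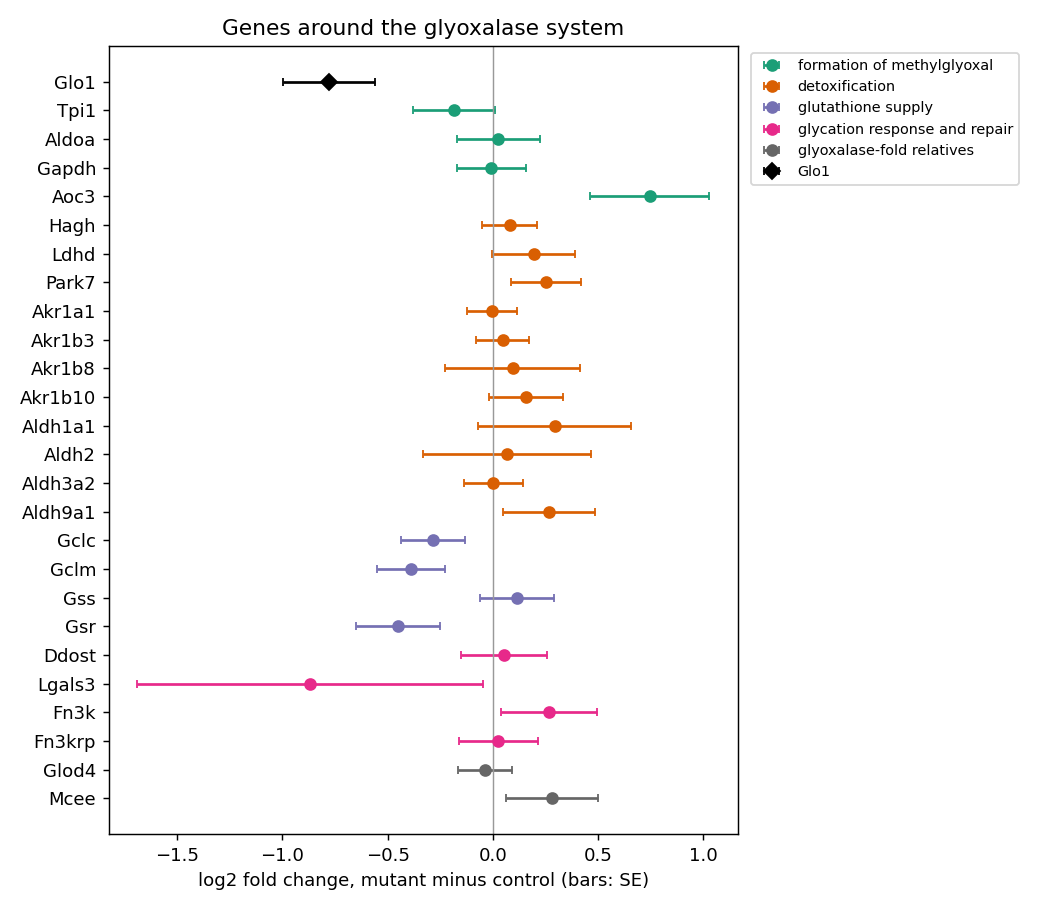
Log2 fold change (mutant minus control) with SE of Glo1 (black diamond) and 25 tested genes around the glyoxalase system, coloured by role. Glo1 lies at -0.78. The glutathione supply genes Gclc, Gclm and Gsr lie between -0.29 and -0.45 and the fourth, Gss, at 0.11. Of the 11 detoxification genes 10 lie above 0, beside 7762 of the 15589 genes tested. None of the 11 was called by edgeR (smallest adjusted p = 0.834).

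The genes whose levels followed Glo1 most closely were sought among 12607 genes with a mean of at least 1 CPM, by Pearson's r of log2 CPM over the 6 libraries, which share the group difference. The closest were Orc4 (r = 0.992), a subunit of the replication origin complex, Spcs3 (0.99), a signal peptidase subunit, Amd2 (0.989), an S-adenosylmethionine decarboxylase gene, Ubac1 (0.986) and the tubulin gene Tuba1c (0.985). Their gaps differed widely. Orc4 stood at 17.2 to 19.3 CPM in mutants and 20.1 to 24.3 CPM in controls, and Amd2 at 0.814 to 1.90 CPM in mutants and 3.53 to 33.6 CPM in controls. In each of the 5, as in Glo1, control 2 was the lowest control and mutant 3 the lowest mutant. Choosing genes by r over these same libraries favours such a shared order, so nothing is read from it. Among the closest to Gm13443 were Gm14292 (r = 0.998), Gm9825 (0.995) and Atp6v0c-ps2 (0.993), all processed pseudogenes like Gm13443, and the antisense transcript AC165951.1 (0.986). Gm9825 stood at 0.185, 0.248 and 0.178 CPM in mutants and 5.59, 5.71 and 10.8 CPM in controls. Control 3 was the highest library, an order that the same choice favours.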

How the data were processed

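Per the labels' protocols, poly(A) RNA of frozen gastrocnemius gave directional libraries with paired reads of 61 bp. The authors deposited unnormalized counts of read pairs as a matrix, which equalled the unstranded count in all 57010 genes, and as 1 file per library with both strands apart. STAR 2.7.11b, DESeq2 1.50.2 and GRCm39 are named in the submitters' processing notes, while which annotation was counted is not given in these notes. The authors also deposited log2 fold changes with standard errors. Names, strands and gene order came from GENCODE M21 (GRCm38), so no coordinates are given.

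The test was edgeR 4.0.16 (R 4.3.3): TMM, filterByExpr at a minimum count of 10, robust quasi-likelihood, mutant minus control, no covariate, Benjamini-Hochberg adjustment over 15589 genes, with called meaning an adjusted p below 0.05. It was also run on counts simulated from its own fitted dispersions with no effect of sex, which checks the code and not the design. Pairs without a gene (18.5% to 22.3%) were left out. Where Aldoa matched 2 IDs, the one with more pairs was used. Sequences were compared with blastn 2.17.0 (E-value 1e-10). Plots used matplotlib 3.10.9.

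The members and lists were chosen with earlier results of these data known. Named were the members, Dysf, per list the called genes and the 5 with the smallest p, and the 5 genes closest in pattern to Glo1 and to Gm13443, of which 1 is not reported here. Others named serve as background or were chosen after their values were seen. Alternatives were RLE and upper-quartile scaling, other filters, DESeq2 1.42.0, limma-voom (limma 3.58.1), sex, males only, the replicate number as a block, strand-matched counts and each library left out.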

Additional observations from a re-analysis of the deposited data

How the results depend on the processing

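The log2 fold changes of Glo1, Gm13443 and Dnah8 stayed below 0 under all alternatives that gave a value (16, 16 and 15), from -1.03 to -0.61, from -3.73 to -3.07 and from -1.62 to -0.73. Dnah8 did not pass the filter of 1 CPM in 3 libraries, and with sex as a covariate or in males only its value was -0.73. Btbd9 ran from -0.16 to 0.22. Glp1r could be fitted without a filter only, at 1.42 (SE 1.16). Against 31 calls over all genes, there were 79 with no filter, 184 by DESeq2, 11 with the replicate block, 0 with sex as a covariate (882 at an unadjusted p below 0.05) and 0 in males only (594, the single mutant being assumed to vary like the controls), and 6 to 49 with single libraries left out (7, 6 and 49 without mutants 1 and 2 and control 2). Same-numbered animals had correlated deviations of 0.161, -0.0609 and 0.167, and mutant 2 correlated best with control 1, so the numbers were not taken as pairs. The calls of Gm13443, AC165951.1, H2-Ea-ps and H2-Q1 were lost with sex as a covariate, in males only and with the replicate block, and that of Gm13443 with limma-voom.

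No gene of the glyoxalase or neighbour lists was called in any alternative. Glyoxalase genes at an unadjusted p below 0.05 numbered 1 with upper-quartile scaling, DESeq2, sex, males only or the replicate block, 0 with limma-voom, and 0 to 4 with libraries left out, against 2. For neighbours they numbered 3 with sex or in males only and 0 to 2 with libraries left out, against 1. The neighbour median, 0.02 in log2, was -0.0424 with the filter of 1 CPM and ran from -0.0445 to 0.0831 with libraries left out. The cause of these shifts was not tested.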
